A study of Arabidopsis thaliana with 4 samples.

Results

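The genes described here are the 7 Arabidopsis TGA transcription factors TGA1 to TGA7 and 3 proteins that work with them, the GRAS protein SCL14, the glutaredoxin GRX480 and the salicylic acid coregulator NPR1. They were chosen by locus, and all 10 had at least 1 matched probe, out of 25418 loci with a probe. Their transcripts were measured in seedlings of the Columbia-0 ecotype of Arabidopsis thaliana, wild type in every group and of an age the labels do not give, kept at 4 °C for 3 days after sowing on peat pellets and then grown in 14 h of light a day at 23 °C. Seedlings were exposed in a closed box for 30 min to the vapour of acetonitrile, which served as solvent and control, or to (E)-2-pentenal, 3-hepten-2-one or crotonaldehyde in that solvent (3 µl of a 1 M solution in a box of 340 cm3 at 25 °C), each at a nominal concentration of 10 µM. The first and the last of these volatiles are aldehydes with a double bond next to the carbonyl group, and 3-hepten-2-one is a ketone with the same feature. Where 3 values are given for the volatiles, they stand in this order. Each group was 1 one-colour array with RNA pooled from at least 6 plants, so no difference below has a replicate check, a p-value or a standard error.

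TGA factors are bZIP proteins that bind TGACG motifs in the promoters of stress genes. They fall into clades: TGA1 and TGA4 form clade I, TGA2, TGA5 and TGA6 clade II, and TGA3 and TGA7 clade III. Clade II factors serve 2 partners. With NPR1, which responds to salicylic acid, they switch on defence genes, and with SCL14 they switch on genes that detoxify reactive and foreign compounds. GRX480, also called ROXY19, is a small glutaredoxin that binds TGA factors, is itself induced through them, and holds back jasmonate and ethylene defence genes and detoxification genes when it is overproduced.

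All 10 genes were well above background on all 4 arrays, as were 18412 loci in all. A level is log2 of the scanner's background-subtracted signal relative to the 75th percentile of its array, a difference is one level minus another, and a gene was called higher or lower at 2-fold or more, a difference of 1 on the log2 scale. The errors given are those of the scanner software for the spot, about 10% of each signal. They cover measurement within an array only, as does the SD of 0.107 to 0.130 between the log2 differences of repeat spots (17 probes). The 75th percentile of the signal was 1047.8 to 1666.5, lowest on the crotonaldehyde array. That array was on another slide, scanned on another day than the other 3, so slide and treatment cannot be told apart in any comparison with it. Markers of green tissue were bright on all 4 arrays (RBCS1A, CAB1, RCA and PSBO1, signals from 139901.2 to 729786.6), and 2 of 3 seed storage genes, CRA1 and CRU3, were well above background after 3-hepten-2-one only. The third, SESA1, had a signal of 22.1 to 117.2. Of the root markers, PYK10 had a signal of 29695.2 in the control, 12785.1 after (E)-2-pentenal, 48142.4 after 3-hepten-2-one and 59.1 after crotonaldehyde. CASP1, at 65.2 in the control, was not well above background after crotonaldehyde. The summed signal of both root markers, relative to the 75th percentile of the array, was 17.9, 8.47, 31.5 and 0.0658 in the same order.

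GRX480 (AT1G28480) was at least 2-fold higher after each of the 3 volatiles. Its signal was 7224.9 ± 722.5 (scanner error) in the control, 38875.0 ± 3887.5 after (E)-2-pentenal, 32008.8 ± 3200.9 after 3-hepten-2-one and 47311.6 ± 4731.2 after crotonaldehyde. The control array was the lowest of the 4, and each treated array lay well outside the scanner error of the control. The log2 difference from the control was 2.56 ± 0.20 after (E)-2-pentenal, 5.91-fold. It was 2.27 ± 0.20 after 3-hepten-2-one, 4.82-fold, and 3.38 ± 0.20 after crotonaldehyde, 10.4-fold. Among the differences of all 18412 loci, ordered from the highest, GRX480 ranked 202 after (E)-2-pentenal, 295 after the ketone and 115 after crotonaldehyde. All 3 differences use the same control array, so its error is common to them.

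Read against all loci, 1 of the 10 genes, GRX480, was at least 2-fold higher after (E)-2-pentenal, where 4.50% of all loci were higher, and none was lower, where 1.87% were. After 3-hepten-2-one, 1 of 10 was higher and 1 lower, against 6.12% and 4.57% of loci. After crotonaldehyde, 1 of 10 was higher and none lower, against 8.89% and 15.2%. With so few genes, a count of 1 is not far from these shares. In either direction these were 6.37%, 10.7% and 24.1% of loci. With a 1.5-fold rule 2, 2 and 4 of the 10 passed, against 14.1%, 24.1% and 42.5% of loci. The median log2 difference of the 10 was 0.10, -0.11 and 0.24 for the 3 volatiles, beside -0.06, -0.07 and 0.01 for all loci. For the 7 TGA factors alone it was 0.03, -0.16 and 0.08.

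**Figure D1:**
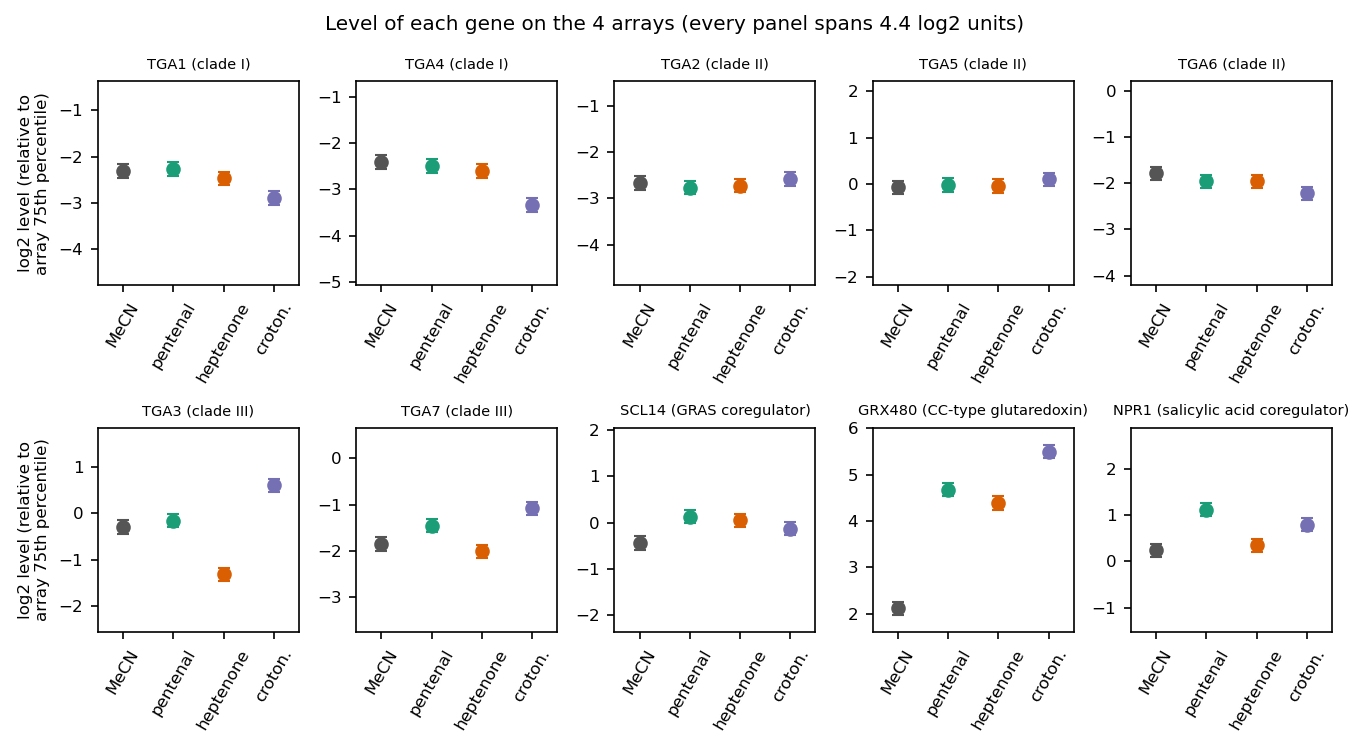
Level of each of the 10 genes on each array, as log2 of the signal relative to the 75th percentile of the array, with 1 panel per gene and panels of equal height in log2 units but different position. Points are single arrays (acetonitrile, (E)-2-pentenal, 3-hepten-2-one, crotonaldehyde) and bars the scanner software's error. GRX480 goes from 2.12 in the control to between 4.39 and 5.50, and TGA3 spans -1.32 to 0.60.

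Among the 7 TGA factors, the clade III gene TGA3 had the widest range over the 4 arrays, 1.92 on the log2 scale, followed by TGA7 at 0.93 and the clade I gene TGA4 at 0.92, which do not differ beyond the scanner error. TGA3 (AT1G22070), which can bind the promoter of the defence gene PR1, had a signal of 1352.0 ± 135.3 in the control, 1354.3 ± 135.5 after (E)-2-pentenal, 613.0 ± 61.4 after 3-hepten-2-one and 1592.9 ± 159.3 after crotonaldehyde. Relative to the 75th percentile of the array, the level was -0.30, -0.16, -1.32 and 0.60 in that order. The ketone array was thus the low one and the crotonaldehyde array the high one, while the control and (E)-2-pentenal arrays lay within the scanner error of each other. The difference from the control was -1.02 ± 0.20 after 3-hepten-2-one, 2.03-fold lower and just past the 2-fold rule. It was 0.14 ± 0.20 after (E)-2-pentenal and 0.91 ± 0.20 after crotonaldehyde, the last just short of the rule. The call after the ketone was lost with median scaling, where it fell just short of the rule, and with normexp background correction (-0.89), and with both of these TGA3 passed the rule after crotonaldehyde, at 1.23 and 1.08.

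TGA7 (AT1G77920), the other clade III factor, had its highest level after crotonaldehyde and its lowest after 3-hepten-2-one, as TGA3 had. Its signal was 463.5 ± 46.6 in the control, 555.3 ± 55.6 after (E)-2-pentenal, 379.7 ± 38.2 after 3-hepten-2-one and 494.5 ± 49.5 after crotonaldehyde. The signal itself was highest after (E)-2-pentenal, and only after scaling to the dimmer array was the crotonaldehyde level the highest. The differences from the control were 0.40 ± 0.20, -0.16 ± 0.21 and 0.76 ± 0.20, none past 2-fold. After the ketone TGA7 was thus within the scanner error of the control. With median scaling the difference after crotonaldehyde was 1.08. TGA3 and TGA7 each had 1 probe.

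The clade II factors, through which NPR1 and SCL14 act, differed little between arrays. TGA5 (AT5G06960) had a signal of 1583.7 ± 158.4 in the control, 1500.6 ± 150.1 after (E)-2-pentenal, 1490.5 ± 149.1 after 3-hepten-2-one and 1123.9 ± 112.4 after crotonaldehyde. Relative to the 75th percentile its level spanned only 0.17 on the log2 scale, less than the scanner error of a difference, and 3.2% of all loci had a smaller range. Its differences from the control were 0.06, 0.04 and 0.17 for the 3 volatiles. TGA2 (AT5G06950), the next gene to TGA5 on the chromosome with none between them in the annotation, had signals of 261.7 ± 26.4, 222.1 ± 22.4, 231.1 ± 23.3 and 173.8 ± 17.6 in the same order of arrays. Its level spanned 0.18, and 3.6% of loci had a smaller range. Its differences of -0.10, -0.06 and 0.08 were within their scanner error of 0.21. Over the settings tried, the difference of TGA2 after crotonaldehyde ran from -0.20 to 0.40, so its direction depends on the setting.

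TGA6 (AT3G12250), the third clade II factor, had a signal of 482.5 ± 48.4 in the control, 391.1 ± 39.2 after (E)-2-pentenal, 394.5 ± 39.6 after 3-hepten-2-one and 225.3 ± 22.8 after crotonaldehyde. Its differences were -0.17 ± 0.20 after both volatiles of the shared slide and -0.43 ± 0.21 after crotonaldehyde. The last was beyond its scanner error. None of the 3 passed 1.5-fold. The level of TGA6 spanned 0.43, and 24.0% of loci had a smaller range.

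The clade I factors TGA1 (AT5G65210) and TGA4 (AT5G10030), which NPR1 binds after reduction of their disulfide bridge, were both lowest on the crotonaldehyde array. The signal of TGA4 was 313.2 ± 31.6 in the control, 270.3 ± 27.2 after (E)-2-pentenal, 252.4 ± 25.4 after 3-hepten-2-one and 104.2 ± 10.8 after crotonaldehyde. Its differences were -0.08 ± 0.21, -0.19 ± 0.21 and -0.92 ± 0.21. The last is 1.89-fold and short of the rule, and it passed with the authors' scaled values, at -1.07. The signal of TGA1 was 336.9 ± 33.9, 313.6 ± 31.5, 276.7 ± 27.8 and 141.5 ± 14.3 in the same order, with differences of 0.03 ± 0.20, -0.16 ± 0.21 and -0.58 ± 0.21. Both genes had a mean signal below that of the median locus. Of the loci below it 21.6% were at least 2-fold lower after crotonaldehyde, against 8.80% of those above it. TGA2, TGA6 and TGA7 were on the same side of the median locus and stood at 0.08, -0.43 and 0.76 after crotonaldehyde. The root marker PYK10 was also lower on that array (log2 difference -8.30), and its part in the TGA1 and TGA4 values was not tested. In RNA pooled from plants, fewer cells of a type and less RNA per cell cannot be told apart.

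SCL14 (AT1G07530), the GRAS protein that activates detoxification genes with clade II factors, was above the control level on each treated array but never by 2-fold. Its signal was 1224.8 ± 122.5 in the control, 1656.5 ± 165.7 after (E)-2-pentenal, 1588.7 ± 158.9 after 3-hepten-2-one and 955.0 ± 95.5 after crotonaldehyde. The crotonaldehyde signal was the lowest of the 4, and only after scaling to the dimmer array was its level, at -0.13, above the -0.44 of the control. The differences were 0.57 ± 0.20 after (E)-2-pentenal, 0.50 ± 0.20 after 3-hepten-2-one and 0.31 ± 0.20 after crotonaldehyde. They stayed above 0 under every setting tried, with ranges of 0.51 to 0.65, 0.38 to 0.57 and 0.16 to 0.63.

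NPR1 (AT1G64280), the coactivator of salicylic acid defence genes, stood highest after (E)-2-pentenal. Its signal was 1973.9 ± 197.4 in the control, 3295.2 ± 329.5 after (E)-2-pentenal, 1956.0 ± 195.6 after 3-hepten-2-one and 1816.2 ± 181.6 after crotonaldehyde. The difference of 0.87 ± 0.20 after (E)-2-pentenal, 1.83-fold, was short of the 2-fold rule and ranked 967 from the highest among the 18412 loci. It was 0.11 ± 0.20 after 3-hepten-2-one, with the 2 arrays within the scanner error of each other, and 0.55 ± 0.20 after crotonaldehyde. The crotonaldehyde signal was below that of the control, and only after scaling to the dimmer array was the level higher. Over the settings tried, the crotonaldehyde difference ran from 0.40 to 0.87.

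**Figure D2:**
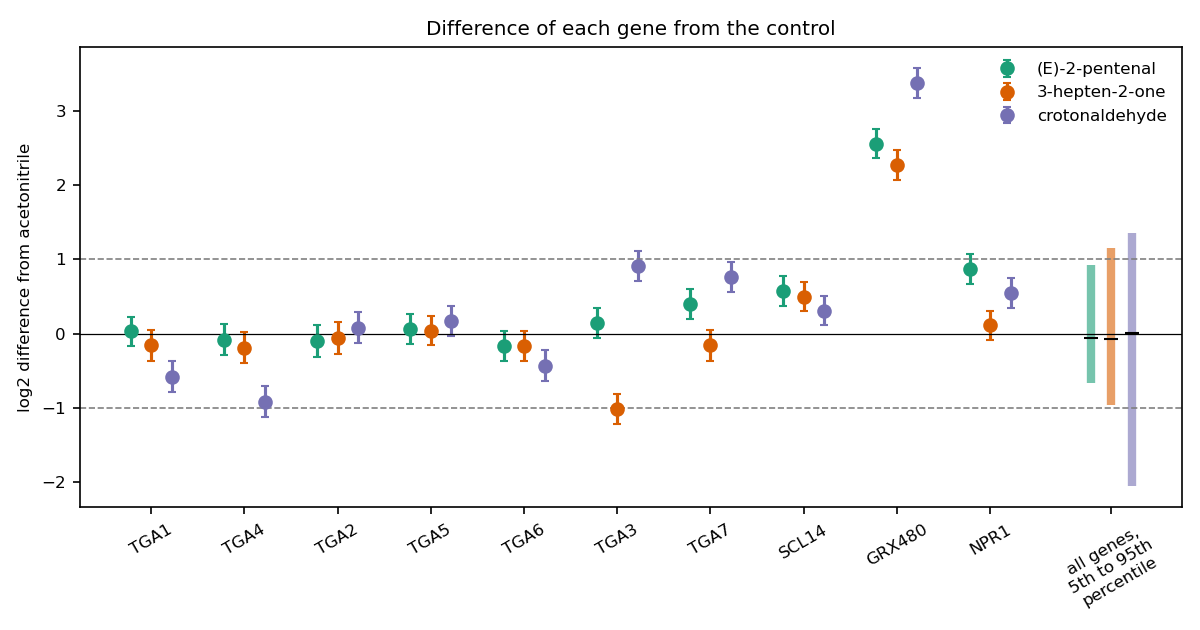
Log2 difference of each gene from the acetonitrile array after each volatile, with the scanner software's error as bars and dashed lines at 2-fold. The bars at the right span the 5th to 95th percentile of all 18412 loci, with the median as a tick. GRX480 lies at 2.27 to 3.38 after the 3 volatiles and TGA3 at -1.02 after 3-hepten-2-one, while the 3 clade II factors TGA2, TGA5 and TGA6 lie between -0.43 and 0.17.

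TGA1, TGA2, TGA5, SCL14 and GRX480 had several probes, all well above background on all 4 arrays. The dimmer probe of GRX480 gave signals of 164.1 in the control, 1083.5 after (E)-2-pentenal, 783.7 after 3-hepten-2-one and 1416.0 after crotonaldehyde. Its log2 differences of 2.86, 2.38 and 3.78 had the same order of volatiles as those of the brighter probe. The dimmer SCL14 probe gave 0.72, 0.64 and 0.58, and the 3 probes of TGA5 ranged from 0.04 to 0.33. For TGA2 the probes differed. The dimmer one gave -0.39, -0.43 and -0.48, with scanner errors of 0.22 to 0.23, beside the -0.10, -0.06 and 0.08 of the brighter one. Of the 4 TGA1 probes, 3 gave -0.48 to -0.64 after crotonaldehyde, and the dimmest, with a signal of 19.6 there, gave -0.01. Factors of the same clade have similar sequences, so their transcripts could share probes. Probe sequences were not used here, and cross-hybridisation was not tested.

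**Figure D3:**
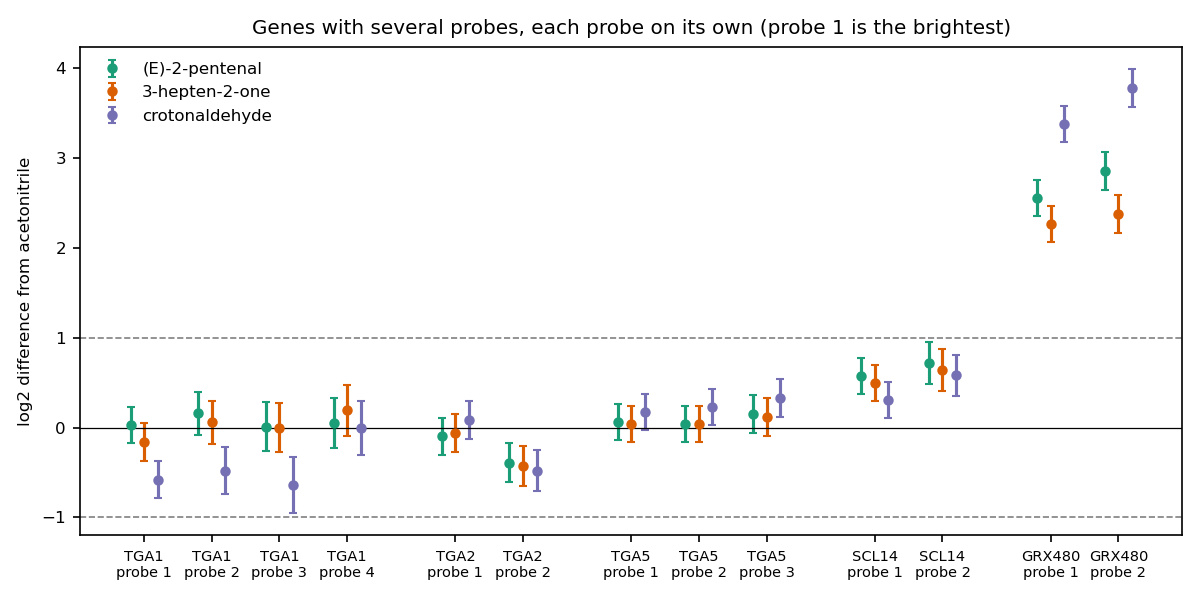
Log2 difference from acetonitrile for every probe of the 5 genes with several probes, ordered by brightness within a gene, with scanner errors as bars and dashed lines at 2-fold. The GRX480 probes lie between 2.27 and 3.78 after the 3 volatiles, and the TGA2 probes part, at -0.10 to 0.08 and -0.48 to -0.39.

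The volatiles were next set against each other at the same nominal dose and time. Between the ketone 3-hepten-2-one and the aldehyde (E)-2-pentenal, on the shared slide, TGA3 was 2.23-fold lower after the ketone (difference -1.16 ± 0.20), the only one of the 10 past 2-fold, where 4.21% of all loci were lower and 3.86% higher. NPR1 was lower after the ketone by less than 2-fold, at -0.76 ± 0.20, and TGA7 stood at -0.56 ± 0.20. GRX480 differed by -0.29 ± 0.20, and TGA1, TGA2, TGA4, TGA5, TGA6 and SCL14 by -0.19 to 0.05. Between the aldehydes, which differ by a single carbon in the chain, none of the 10 passed 2-fold, where 5.56% of loci were higher and 13.6% lower after crotonaldehyde. The greatest differences, crotonaldehyde minus (E)-2-pentenal, were -0.84 ± 0.21 for TGA4, 0.82 ± 0.20 for GRX480 and 0.77 ± 0.20 for TGA3. GRX480 passed 2-fold there with median scaling, at 1.08, and with normexp, at 1.02, and TGA3 with median scaling, at 1.03. Between crotonaldehyde and the ketone, 2 of 10 were higher after crotonaldehyde, TGA3 by 3.80-fold (1.92 ± 0.20) and GRX480 by 2.16-fold (1.11 ± 0.20), against 9.72% of loci higher and 15.8% lower. TGA7 was just short, at 0.93 ± 0.20, and it passed with median scaling (1.23) and quantile normalization (1.02), which made the count 3. In either direction 8.07%, 19.2% and 25.5% of loci passed 2-fold in these 3 comparisons. With the 1.5-fold rule 2, 4 and 4 of the 10 passed, against 20.2%, 37.9% and 45.2% of loci. Without replicates no interval can be given for how alike the volatiles acted on the other genes.

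For the genes past 2-fold against the control, the loci with the most similar values over the 3 differences were found by straight-line distance. For TGA3 they were AT1G51610, XBAT35 (AT3G23280) and AT3G24760, at distances of 0.12, 0.14 and 0.15 on the log2 scale. XBAT35 stood at 0.27 after (E)-2-pentenal, -1.01 after 3-hepten-2-one and 0.91 after crotonaldehyde. For GRX480 they were AT4G15420, AT4G32208 and AT1G44414, at 0.11, 0.13 and 0.18. With 3 values that share a control array, such likeness is only a description.

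Genes known to depend on clade II TGA factors or on SCL14 in exposure to reactive compounds were far higher, while the regulators themselves mostly differed by less than 2-fold. Of 7 such genes measured on every array, 7 were higher after (E)-2-pentenal, 7 after 3-hepten-2-one and 6 after crotonaldehyde, where 1 was lower. Of all loci 4.50%, 6.12% and 8.89% were higher and 15.2% were lower after crotonaldehyde. Their median log2 differences were 3.73, 4.59 and 3.37. CYP81D11 (AT3G28740), a cytochrome P450, had a signal of 405.2 in the control, 12641.0 after (E)-2-pentenal, 29447.1 after 3-hepten-2-one and 8545.9 after crotonaldehyde. Its differences were 5.10, 6.31 and 5.07. The transcription factor NAC032 (AT1G77450) stood at 4.32, 4.59 and 4.61. The glutathione S-transferases GSTU7 and GSTU24, which couple reactive compounds to glutathione, stood at 3.81, 3.99 and 3.83 and at 3.73, 4.74 and 1.96. UGT74E2, a glucosyltransferase, stood at 3.49, 4.87 and 2.50, and the reductase OPR1 at 3.13, 3.12 and 3.37. The exception was ChlAKR (AT2G37770), an aldo-keto reductase of the chloroplast, at 1.40, 2.34 and -1.19. Its crotonaldehyde call was lost with median scaling (-0.86), quantile normalization (-0.67) and normexp (-0.38), and its (E)-2-pentenal call with normexp (0.99). GSTU25 was not well above background in the control alone. The lower bound of its fold above the control was 5.83 for (E)-2-pentenal and 33.9 for the ketone. For crotonaldehyde the bound was 1.13, but the signal of 12.5 there lay below the 17.7 of the control. Its level was higher there only through scaling to the dimmer array, so no rise is read from it. With GSTU25 at these bounds the median of 8 genes was 3.61, 4.67 and 2.93. This list was chosen with results of these arrays known and is no independent evidence of its direction.

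The NPR1 relatives NPR3 (AT5G45110) and NPR4 (AT4G19660), which bind salicylic acid and repress defence genes, were at least 2-fold higher after each volatile. NPR3 had a signal of 2710.2 in the control, 8353.0 after (E)-2-pentenal, 5299.5 after 3-hepten-2-one and 5389.3 after crotonaldehyde, with differences of 1.76, 1.09 and 1.66. NPR4 stood at 738.5, 2944.3, 2419.1 and 1559.1 in signal and at 2.13, 1.83 and 1.75 in difference. The call of NPR3 after 3-hepten-2-one was lost with the authors' scaled values (0.97). With these 2, 2 of 3 measured relatives were higher after each volatile, against 4.50%, 6.12% and 8.89% of all loci, and the median was 1.76, 1.09 and 1.66. Counting BOP1, measured on 3 arrays, the median of 4 relatives was 0.89, 0.86 and 0.38. NPR2 (AT4G26120), also measured on 3 arrays, was left out of these counts and medians for want of a gene name, and it was not higher. Its log2 difference was -0.04 with (E)-2-pentenal and -1.07 with the ketone. On the crotonaldehyde array, where it was not well above background, it was lower by 2.1-fold or more.

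Of the genes for proteins that bind or modify NPR1, 1 of 8 was higher after (E)-2-pentenal, 2 were lower after 3-hepten-2-one and 1 was higher after crotonaldehyde, with medians of 0.04, -0.22 and 0.15. The shares of all loci were 4.50% higher, 4.57% lower and 8.89% higher in these cases, so counts of 1 of 8 are near the background. NIMIN1 (AT1G02450), a small repressor that binds NPR1, had a signal of 631.8 in the control, 3847.2 after (E)-2-pentenal, 186.7 after 3-hepten-2-one and 325.5 after crotonaldehyde. It was thus higher after (E)-2-pentenal (2.74) and lower after the ketone (-1.64), with -0.29 after crotonaldehyde. NIMIN-2 (AT3G25882) was lower after the ketone as well, at -1.58, and stood at 0.83 and 0.90 after the aldehydes. TRX5 (AT1G45145), a thioredoxin that reduces NPR1, was higher after crotonaldehyde, at 2.31. With median scaling 3 of 8 were higher there, with NIMIN-2 at 1.22 and TRX3 at 1.01 as well.

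Salicylic acid response genes downstream of NPR1 were higher in 3 of 6 cases after (E)-2-pentenal and after crotonaldehyde, and 1 of 6 was lower after 3-hepten-2-one. Of all loci 4.50% and 8.89% were higher after these aldehydes and 4.57% lower after the ketone. The medians were 1.23, 0.03 and 0.80, and 0.97, 0.24 and 1.43 with PR1 at its bound. After (E)-2-pentenal the higher ones were the transcription factors WRKY62 (2.10), WRKY38 (1.81) and WRKY70 (1.75). After crotonaldehyde they were BGL2, also called PR2, a glucanase (2.10), WRKY18 (1.63) and PR5, a thaumatin-like protein (1.43). WRKY38 was the one lower after the ketone, with a signal of 94.0 against 585.0 in the control and a difference of -2.52. The control array had no signal well above background for PR1, whose signal of 84.4 after crotonaldehyde was at least 8.49-fold higher.

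Of the jasmonate and ethylene genes that excess GRX480 is known to hold back, the defensin PDF1.2 (AT5G44420) had a signal of 3113.4 in the control, 47.6 after (E)-2-pentenal and 2778.5 after the ketone. It was lower after both aldehydes (-5.90 and -5.03), where 1.87% and 15.2% of all loci were lower, and stood at -0.04 after the ketone. GRX480 was higher after all 3 volatiles, and its part in these values was not tested. ORA59 (AT1G06160), the factor that activates PDF1.2, had differences of -1.40 and -1.02 after (E)-2-pentenal and 3-hepten-2-one. It was at least 34.6-fold lower after crotonaldehyde, where it was not well above background. The crotonaldehyde array was on another slide, and the root marker PYK10 stood at -8.30 there. The part of slide and of root tissue in these values was not tested.

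**Figure D4:**
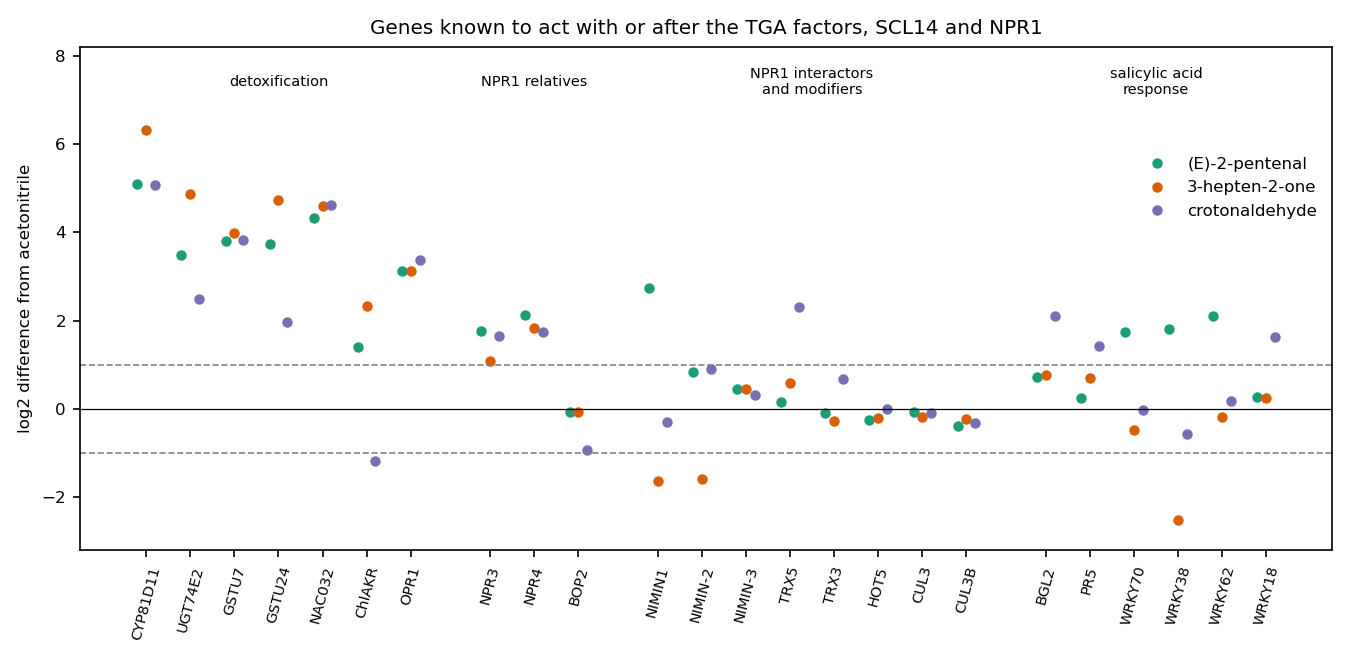
Log2 difference from acetonitrile for genes known to act with or after the TGA factors, SCL14 and NPR1, grouped by list, for genes well above background on all 4 arrays. Dashed lines mark 2-fold, and each point is 1 array minus the control. The detoxification genes lie between 1.40 and 6.31, apart from ChlAKR at -1.19 after crotonaldehyde.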

How the data were processed

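RNA of each group, carrying the Cy3 dye, was measured on 1 Agilent array. Per the file headers, the deposited scanner files come from version 10.10.1.1 of Agilent Feature Extraction and a design annotated to TAIR10; the submitters' processing notes name version 9.1. They hold intensity on a linear scale: the processed signal, background-subtracted within each array by the authors' scanner software and not scaled between arrays, and its error. A table of intensity values scaled by the authors was also deposited. Each of its columns is the processed signal times a constant (1.3801, 1.4484, 1.3835 and 1.9797 for the control and the 3 volatiles in the order of the report), with medians of 388.8, 356.7, 352.3 and 280.5. It is therefore linear and not centred. The sources used here do not give how the constants were set. If all the volatile entered the air, the dose was 8.82 µM.

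Each array had 43803 non-control spots, none saturated, and 4 to 16 outlier spots were left out. Spots of a probe were averaged. Probe accessions, stripped of their versions, were assigned to loci through a RefSeq gene table (assembly TAIR10.1), and 34476 spots matched 1 locus. The same table gave gene names and gene order. A locus took its brightest probe by mean signal. Where one side of a comparison was not well above background, its level was taken as its measured value or, if greater, the array's dimmest signal that was well above background (10.6 to 15.8), and the fold is a lower bound. Differences are log2 values computed from the deposited signals. The number of arrays limits the precision. The alternatives were median scaling, quantile normalization, normexp on the median spot and background signals (offset 50), the authors' scaled values, 2 other filters on dim probes, the mean over probes, and a 1.5-fold rule. Applying them to the gene lists was decided after the data were seen. Members and lists were chosen with earlier results of these data known. The lists held 60 loci, of which 25 have no gene name in the RefSeq table and were left out of counts and medians. Among these were all SCL14 relatives, most glutaredoxins and NPR2. Named genes were the 10, up to 4 list genes past 2-fold per volatile, and the 3 nearest loci of each member past 2-fold; other list values were added after they were seen. The steps were tested on simulated data. Tools were Python 3.11.15 with pandas 2.3.3 and limma 3.58.1 in R 4.3.3.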

Additional observations from a re-analysis of the deposited data

How the results depend on the processing

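No paired analysis was possible because each group had 1 array. Of 480 values of the 10 genes under the 8 alternatives (60 values each), 458 stayed on the same side of the size rule, 20 passed it where they had not, and 2 no longer passed; 11 of the 20 came from the 1.5-fold rule. The sign changed in 10 of the 480, all short of the rule and at most 0.26 in size, with the authors' scaled values (TGA1, TGA2, TGA5, NPR1), the mean over probes (TGA1, TGA2) or median scaling (TGA6, SCL14). GRX480 stayed at least 2-fold above the control under every alternative, between 2.50 and 2.71 after (E)-2-pentenal, 2.08 and 2.32 after the ketone and 3.17 and 3.70 after crotonaldehyde. The number of the 10 past 2-fold after 3-hepten-2-one went from 2 to 1 with median scaling and with normexp, both through TGA3. After crotonaldehyde it went from 1 to 3 with median scaling, 2 with normexp and 2 with the authors' scaled values. Between crotonaldehyde and (E)-2-pentenal it went from 0 to 2 with median scaling and 1 with normexp. With the 1.5-fold rule the numbers were 2 after (E)-2-pentenal, 4 after crotonaldehyde, 2 between 3-hepten-2-one and (E)-2-pentenal, 4 between crotonaldehyde and (E)-2-pentenal and 4 between crotonaldehyde and 3-hepten-2-one. Median scaling moved the median of all loci after crotonaldehyde from 0.01 to 0.33, and the share of calls that were higher from 36.9% to 58.7%. Between crotonaldehyde and (E)-2-pentenal median scaling took it from 29.0% to 51.8%, and between crotonaldehyde and the ketone from 38.1% to 58.8%. Loci at least 2-fold higher after crotonaldehyde numbered 1637, against 2868 with median scaling and 3872 with no filter on dim probes. Those lower numbered 345 after (E)-2-pentenal, against 214 with normexp and 934 with no filter, and 842 after the ketone, against 526 and 1412. With the authors' scaled values the share of higher calls after crotonaldehyde was 27.8%, and after 3-hepten-2-one 46.0% against 57.2%. The filters on dim probes and the mean over probes changed no call of the 10. For the lists, 326 counts were within 1.5 times and 10 were not. Scanner error allows small differences to be neither shown nor excluded, and the lack of replicates limits every value.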

Other observations

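The following relatives of these genes come from 3 of the lists and were chosen after their values were seen, and no common pattern is read from them. After crotonaldehyde 15.2% of all loci were at least 2-fold lower, and 21.6% of those below the median locus in mean signal. PAN, the TGA factor also called PERIANTHIA that acts in floral organ patterning, had a signal of 318.0 in the control, 212.5 after (E)-2-pentenal and 248.0 after the ketone. It was not well above background after crotonaldehyde, at least 16.8-fold lower. ROXY1 (AT3G02000), a glutaredoxin that interacts with PAN in petal development, had signals of 4392.5, 3594.2, 3155.7 and 727.0 on the arrays in the same order, with a log2 difference of -1.93 after crotonaldehyde. BOP2, an NPR1 relative that patterns the leaf base, stood at -0.94 there, short of 2-fold (-1.09 with the authors' scaled values), and BOP1 was at least 1.86-fold lower. GRXS13, another glutaredoxin, stood at 3.67, 1.68 and 1.43 after the 3 volatiles, with its 3 probes between 1.43 and 3.43 after crotonaldehyde. Of all loci 4.50%, 6.12% and 8.89% were higher. Most glutaredoxins of its list were left out for want of a gene name, and many of these differed from GRXS13. After crotonaldehyde GRXS1 and GRXS3 to GRXS9 were at least 2-fold lower, at -2.80 to -1.05. GRXS10 was higher, at 1.32, and the rest of those left out and measured were short of 2-fold. The root marker PYK10 was at -8.30 on the crotonaldehyde array, and its part in these values was not tested.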
